A study of Macaca fascicularis with 64 samples.

Results

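GABA metabolism and sensing in the pancreatic islet were followed through 7 genes, GAD1, GAD2, ABAT, ALDH5A1, GABBR1, GABBR2 and GABRA2, out of 21041 macaque genes counted in single islet cells of cynomolgus monkeys. The genes were chosen from the GABA pathway with earlier results of these cells known, so their levels are given as measurements of named genes and not as a sample of the pathway. All 7 had at least 1 unique molecular identifier (UMI), the tag that marks 1 captured RNA molecule, in the retained cells. GAD2 had 131325 UMIs, ABAT 45111, ALDH5A1 15840, GABBR1 5840, GABBR2 1675, GABRA2 268 and GAD1 138.

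GABA is an inhibitory transmitter made from glutamate by glutamate decarboxylase, of which GAD1 and GAD2 encode separate forms. It is broken down in mitochondria by GABA transaminase, the product of ABAT, and then by succinic semialdehyde dehydrogenase, the product of ALDH5A1, which returns the carbon to the tricarboxylic acid cycle. GABA acts on GABA-B receptors, G protein-coupled pairs of the GABBR1 and GABBR2 proteins, and on GABA-A receptors, chloride channels built of subunits such as GABRA2. In the islet, β-cells are known as a source of GABA, neighbouring endocrine cells carry receptors for it, and the GAD2 protein is a classic target of antibodies in autoimmune diabetes.

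The monkeys were 8 young animals of 4 to 6 years and 8 old animals of 18 to 21 years, and each age group held 4 females and 4 males. All were untreated and described as healthy, and the contrasts made here are age, sex and cell type. The study reports that old animals of both sexes had higher body weight and body mass index. Every comparison by age is therefore also one by body size. Islets came from the tail region of the pancreas, 1 animal a day over 16 days, so that animal and day of collection cannot be told apart. Single cells were picked by mouth pipette into 64 libraries, 4 per monkey, with a protocol named as modified STRT in the study's methods and as modified SMART-seq2 in the labels.

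Of 6141 cells in the files, 5908 had over 800 genes and over 10000 UMIs, with spike-in RNAs counted among these UMIs. The lowest cells kept had 801 genes or 10016 UMIs and the highest left out 793 genes or 9973 UMIs. Each was assigned to a type by the highest of 4 hormone transcripts. Glucagon (GCG) gave 4503 α-cells, insulin (INS) 1219 β-cells, somatostatin (SST) 112 δ-cells and pancreatic polypeptide (PPY) 74 PP-cells. Each monkey had between 338 and 381 retained cells and between 20719761 and 34053080 UMIs of macaque genes, and the median depth was 64894 UMIs for an α-cell, 74425 for a β-cell, 43776 for a δ-cell and 45772.5 for a PP-cell. Since hormones set the types, their levels are a description only. INS averaged 64335 CPM (UMIs in 1000000) in β-cells and 7262 in α-cells, and GCG 76263 in α-cells and 22849 in β-cells, so every type carried hormone UMIs of the others. In 1272 cells the leading hormone was under 4 times the next, and only 31.5% of β-cells, 35.7% of δ-cells and 10.8% of PP-cells lay above that ratio, against 93.4% of α-cells. Other markers went with the labels: IRX2 averaged 475 CPM in α-cells and 40.4 in β-cells, SLC2A2 690 in β-cells and 9.97 in α-cells, HHEX 357 in δ-cells and 2.41 in α-cells, and UGT2B20 159 in PP-cells and 0.799 in α-cells, whereas the listed PP marker AQP3 was near 0 in PP-cells at 0.565. The same 96 cell barcodes were used in 63 to 64 of the libraries, so a cell is identified by library and barcode together.

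Levels are given as CPM, the UMIs of the gene in 1000000 UMIs of all macaque genes, after the cells that 1 monkey had of 1 type were added up, wherever there were at least 5 of them. All 16 monkeys had enough α-cells and enough β-cells, whereas 11 (7 young and 4 old) had enough δ-cells and 6 (2 young and 4 old) enough PP-cells. UMIs were counted at 1 end of the transcript and are not scaled by length, so levels are compared between types and animals and not between genes. Differences are log2 fold changes from edgeR's quasi-likelihood test with monkeys as replicates. Their standard error (SE) is derived from that test, as the size of the fold change over the square root of its F statistic. A gene was called when its Benjamini-Hochberg adjusted p over all tested genes was under 0.05.

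GAD2 was a β-cell transcript. Its level ran from 511 to 1381 CPM over the β-cells of 16 monkeys, with a median of 1138, and from 10.7 to 112 over their α-cells, with a median of 39.1. It was higher in β-cells than in α-cells of the same animal in 16 of 16 monkeys and the ranges did not overlap. The mean was 1109 ± 233 (SD, n = 16) in β-cells and 44.3 ± 29.2 (SD, n = 16) in α-cells, and the edgeR log2 fold change between them was 4.84 (SE 0.27, adjusted p = 6.9e-21). Over all tested genes the median log2 fold change was -0.11 here and between -0.47 and 0.092 in the other pairs of types, so values are relative to that shift. In that comparison 25% of the 12899 tested genes were called, 8.66% as higher and 16.3% as lower in β-cells. Of the 7 genes, 6 passed the filter on low counts and 2 were called, GAD2 as higher and GABBR1 as lower in β-cells, a share that is read only gene by gene.

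δ-cells stood second in GAD2. Their levels ran from 45.3 to 935 CPM in 11 monkeys with a median of 344 and a mean of 370 ± 274 (SD, n = 11). They lay above the α-cells of the same animal in 10 of 11 monkeys (log2 fold change 2.92, SE 0.28, edgeR adjusted p = 8.9e-12) and below the β-cells in 11 of 11 (log2 fold change -1.92, SE 0.29, edgeR adjusted p = 9.9e-07), although the ranges of δ- and β-cells overlapped across animals. PP-cells had 55.3 and 116 CPM in the 2 young monkeys and 19.2, 25.6, 76.1 and 152 in the 4 old ones. Their mean of 74.0 ± 52.0 (SD, n = 6) was below that of β-cells (log2 fold change -4.34, SE 0.43, edgeR adjusted p = 3.2e-11) and of δ-cells (log2 fold change -2.42, SE 0.40, edgeR adjusted p = 2.9e-05), and both differences held in every monkey that had both types. PP-cells and α-cells are neighbours in this order that did not differ beyond their spread (log2 fold change 0.51, SE 0.36, edgeR adjusted p = 0.43).

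**Figure D1:**
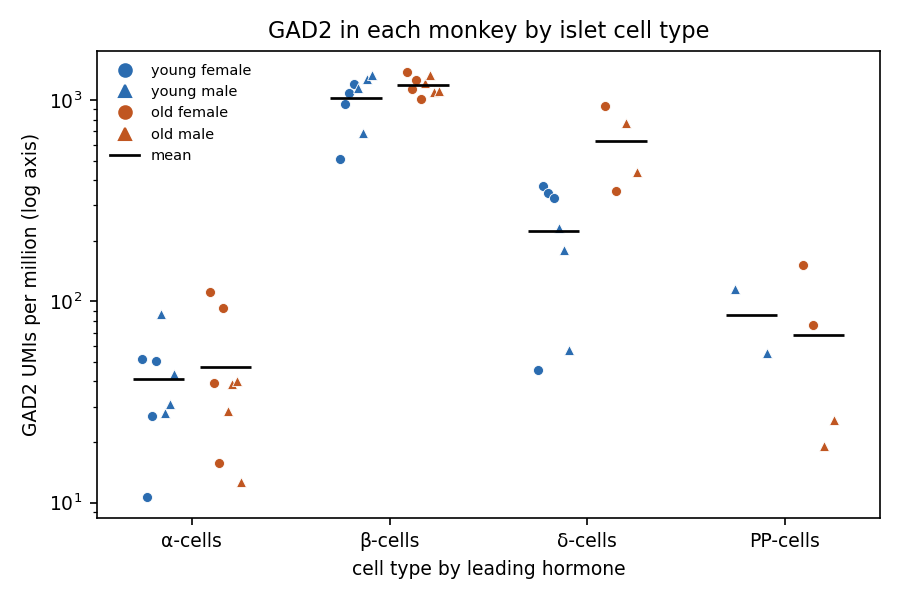
GAD2 CPM (log axis) in the α-, β-, δ- and PP-cells of each monkey with at least 5 such cells, with 1 point per monkey (circles females, triangles males, blue young, orange old) and bars for group means. All 16 β-cell points lie at 511 or above, all α-cell points lie at or below 112, and the δ-cells lie between 45.3 and 935.

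Because every α-cell also held INS UMIs, the α-cell level of GAD2 was set beside that of other β-cell transcripts measured in the same α-cells. In the median monkey the α-cell level was 3.35% of the β-cell level for GAD2, 10.1% for INS, 1.59% for IAPP (amylin), 0.869% for SLC2A2 (the glucose transporter), and 3.56% for MAFA and 27.5% for NKX6-1 (β-cell transcription factors). The GAD2 share therefore lay within the range spanned by these genes. Over the 64 libraries, whose α-cells share depth, animal and β-cell content, GAD2 in α-cells ran from 2.08 to 266 CPM and was higher where the same α-cells held more INS (Pearson r = 0.85, Spearman rho = 0.89, and r = 0.83 without the 2 libraries farthest from the median INS). After the mean of each monkey was subtracted, r was 0.83. It also went with the percentage of β-cells among the cells of the library (r = 0.68). The α-cells were also ranked by INS share within each library, and the lowest and the highest were pooled over libraries, 1481 cells each. The lowest held 27.7 GAD2 CPM and the highest 72.5, a ratio of 2.62. The same ratio was 3.37 for IAPP, 5.32 for SLC2A2, 1.27 for GABBR1 and 0.975 for ABAT. How much of the α-cell GAD2 was carried over from β-cells was not tested.

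**Figure D2:**
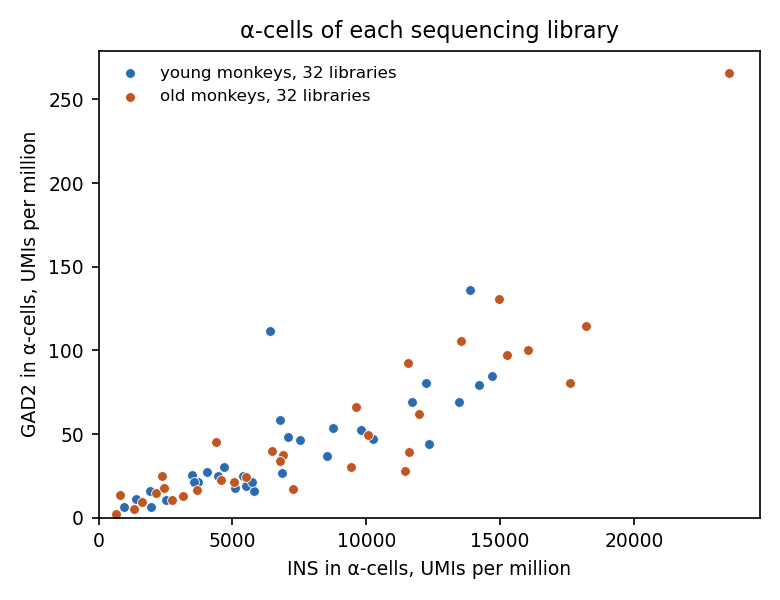
GAD2 against INS in the α-cells of each of 64 libraries, both in CPM, with young monkeys in blue and old monkeys in orange. Libraries with more INS in their α-cells also had more GAD2, in both age groups, up to 266 GAD2 CPM.

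δ-cells were set beside the same transcripts. In the median monkey δ-cells held 31.4% of the β-cell level of GAD2, 9.03% of INS, 2.77% of IAPP, 0.678% of SLC2A2, 1.44% of MAFA and 5.88% of NKX6-1. The highest share in any monkey was 67.7% for GAD2, 28.6% for INS, 52.8% for IAPP, 3.26% for SLC2A2, 11.9% for MAFA and 88.8% for NKX6-1. GAD2 was also unevenly spread among single δ-cells: the 5th percentile of the cells was 0, the median 72.3 and the 95th percentile 1173 CPM. Taking the 5th percentile of β-cells, 175 CPM, as a mark, 43 of 112 δ-cells (38.4%) lay at or above it, against 3.73% of α-cells and 10.8% of PP-cells. The 43 cells came from 15 monkeys. Their median INS was 6420 CPM and that of the other 69 δ-cells 5802, median IAPP was 48.1 against 24.0, and SLC2A2 had a median of 0 in both, while median GAD2 was 540 against 35.3. SST, at a median of 98119 against 91150, and the δ-cell factor HHEX, at 293 against 221, were present on both sides of the mark. The 69 and 43 cells were split by GAD2 itself, so these medians are a description. One exception was a δ-cell of old female 1 with 384261 UMIs, of which 548 were GAD2, 7024 SST, 6774 INS and 772 IAPP: without it the δ-cell level of that monkey went from 935 to 351 GAD2 CPM. No doublet caller was run, and the part of mixed cells in the δ-cell GAD2 was not tested. Acinar markers summed to 465 CPM in δ-cells, of which CPB1 made 444, while CPA1, PNLIP and REG1A had medians of 0 over the δ-cells of 11 monkeys.

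**Figure D3:**
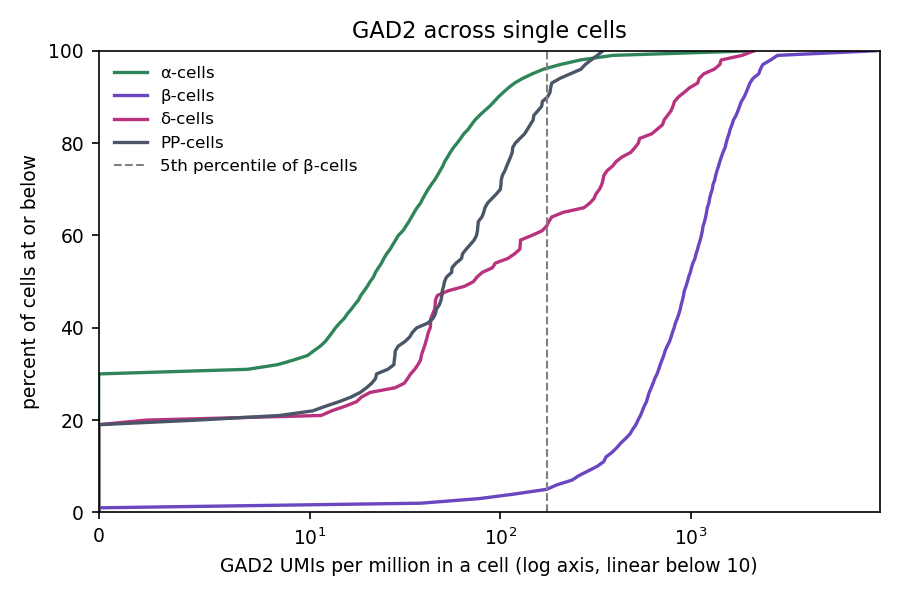
Percent of cells of each type at or below a given GAD2 level, in CPM of the single cell (log axis, linear below 10), with the 5th percentile of β-cells (175) as a dashed line. β-cells rise as 1 steep curve to the right of the line, α- and PP-cells lie mostly to its left, and δ-cells climb on both sides of it.

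The share of cells with at least 1 GAD2 UMI was 98.7% of β-cells (95% interval 97.9 to 99.2, exact binomial), 69.6% of α-cells (68.3 to 71.0), 79.5% of δ-cells (70.8 to 86.5) and 79.7% of PP-cells (68.8 to 88.2), intervals that cover counting error only. INS, which α-cells are not known to make, had a UMI in 100% of them. After each cell was thinned to 10000 UMIs, with 39 α-cells and 6 β-cells too shallow to be used, a GAD2 UMI was left in 96.5% of β-cells, 57.1% of δ-cells, 43.2% of PP-cells and 26.3% of α-cells.

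GAD1, the other decarboxylase gene, was close to absent. It had UMIs in 49 of 5908 cells (0.829%), and the 10 cells with the most held 62.3% of its 138 UMIs. In α-cells it ran from 0 to 0.512 CPM, with 7 of 16 monkeys at 0, and in β-cells from 0 to 9.06, with 9 of 16 monkeys at 0. The highest β-cell value, in young female 3, came from 1 cell with 19 UMIs. In δ-cells 10 of 11 monkeys and in PP-cells 5 of 6 had no UMI, and GAD1 did not pass the filter for any test. Of 112 δ-cells 1 had a UMI, and for the 70 young δ-cells a count of 0 allows a share of cells with a UMI of up to 4.29%.

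ABAT, the transaminase that removes GABA, was found in every type. Its level ran from 29.3 to 185 CPM in α-cells (median 94.0) and from 30.1 to 218 in β-cells (median 114), over 16 monkeys each. It ran from 20.5 to 205 in δ-cells (median 80.0, 11 monkeys) and from 10.3 to 99.9 in PP-cells (median 78.2, 6 monkeys). All ranges overlapped and none of the 6 pairs of types was called: the edgeR log2 fold change between β- and α-cells was 0.27 (SE 0.22, adjusted p = 0.43), and the largest, PP-cells against β-cells, was -0.75 (SE 0.36, adjusted p = 0.15). β-cells were above the α-cells of the same animal in 13 of 16 monkeys. ABAT UMIs were in 75.2% of α-cells and 83.2% of β-cells at the deposited depth, and in 1914 of 4464 α-cells (42.9%) and 607 of 1213 β-cells at 10000 UMIs per cell.

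Of the 5 members tested for age in β-cells, ABAT had the lowest p, without passing the threshold over all genes. Young β-cells ran from 102 to 218 CPM with a median of 158, and old β-cells from 30.1 to 126 with a median of 89.5. All 8 old monkeys lay below the young median, 7 of 8 old monkeys lay below every young one, and the ranges touched only through old female 2 at 126 and young male 1 at 102. Young β-cells averaged 163 ± 36.8 CPM and old β-cells 83.7 ± 28.6 CPM (SD, n = 8 each). The edgeR log2 fold change, old against young, was -1.02 (SE 0.22) with an unadjusted p of 0.00011 and an adjusted p of 0.087, in a comparison in which 5 of 10628 genes were called (0.047%) and none of the 5 tested members was. DESeq2 gave an adjusted p of 0.0050 and the edgeR fit without a filter on low counts 0.048, so the call depended on the tool and the filter. On the mean over single cells of log2(CPM/10 + 1), with the CPM of each cell, the difference was -0.95 (exact permutation test, two-sided, unadjusted p = 0.00062, 8 against 8 monkeys). Among β-cells whose INS was at least 4 times the next hormone, which 4 young and 7 old monkeys could supply, ABAT ran from 99.8 to 159 in young and from 43.7 to 156 in old animals, with a log2 fold change of -0.57 (edgeR adjusted p = 1.0). Old β-cells as a whole held less GCG, 19711 against 25988 CPM, and less INS, 58602 against 70068, and were deeper, at a median of 81435 against 64783 UMIs per cell. The part of these differences in the ABAT values was not tested beyond the fit on thinned cells, which gave -0.99 (edgeR adjusted p = 0.29).

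**Figure D4:**
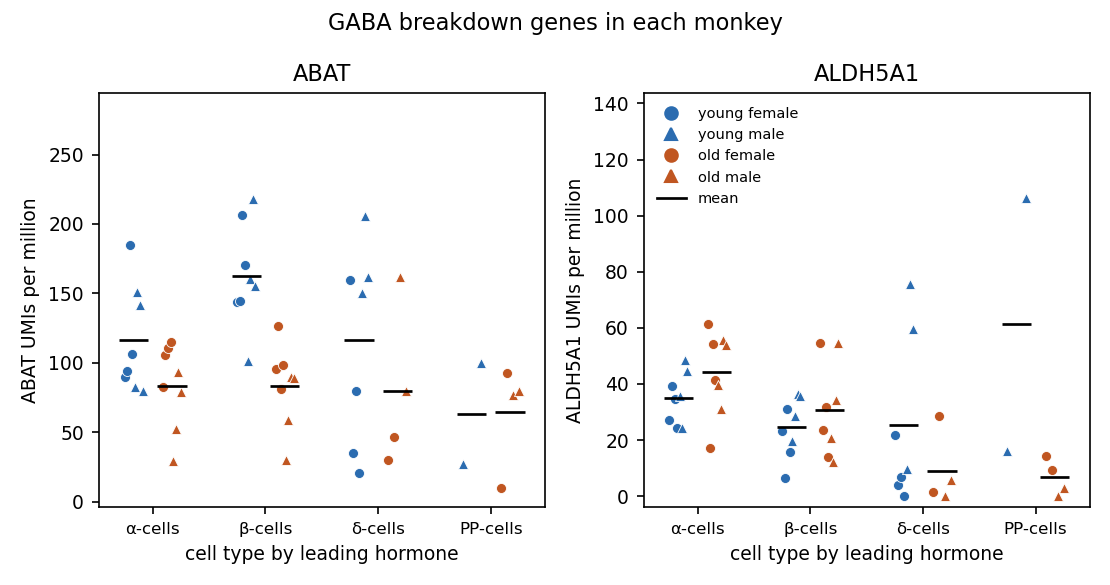
CPM of ABAT (left) and ALDH5A1 (right) in the 4 cell types of each monkey with at least 5 such cells, with 1 point per monkey (circles females, triangles males, blue young, orange old) and bars for group means. In β-cells the 8 old monkeys lie at 126 or below for ABAT and the 8 young ones at 102 or above, while ALDH5A1 overlaps between the ages in α- and β-cells.

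In α-cells ABAT ran from 79.5 to 185 CPM in young monkeys (median 100) and from 29.3 to 115 in old ones (median 88.3). Here 5 of 8 old monkeys lay below the young median and the ranges overlapped widely. The edgeR log2 fold change was -0.55 (SE 0.23, adjusted p = 0.70), with no gene of 12916 called (0%) at the adjusted threshold and 886 at an unadjusted p under 0.05, and the difference on the single-cell scale was -0.66 (exact permutation test, two-sided, unadjusted p = 0.033, 8 against 8). The age effect in β-cells minus that in α-cells was -0.48 (SE 0.17, unadjusted p = 0.0087, edgeR adjusted p = 0.63), and 0.0083 when the leading hormone was at least 4 times the next. In males alone old minus young was -1.24 in β-cells (edgeR adjusted p = 0.30) and -0.88 in α-cells (0.92), and in females -0.76 (1.0) and -0.22 (0.91). Old male 1 had the lowest ABAT in both types. The difference between the sexes in the age effect was -0.48 (SE 0.43) in β-cells and -0.66 (SE 0.45) in α-cells, and neither was called (edgeR adjusted p = 1.0 and 0.91).

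ALDH5A1, the next enzyme of the same route, ran from 17.2 to 61.5 CPM in α-cells (median 39.4) and from 6.43 to 54.6 in β-cells (median 26.2). β-cells were below the α-cells of the same animal in 13 of 16 monkeys, but the ranges overlapped and the edgeR log2 fold change of -0.65 (SE 0.37, adjusted p = 0.21) was not called. That result depended on the setting. A fit of α- and β-cells alone with at least 20 cells called the difference (-0.49, edgeR adjusted p = 0.0076). None of the 16 fits that left out 1 monkey did. δ-cells ran from 0 to 75.6 (median 6.95, 2 of 11 monkeys at 0) and were below α-cells in 8 of 11, which was called at a log2 fold change of -1.43 (SE 0.51, edgeR adjusted p = 0.034). That call was lost without old female 1, old male 2, old male 4, young female 2, young female 3, young female 4 or young male 1 (edgeR adjusted p from 0.063 to 0.081 for these 7 and from 0.0095 over all 16 omissions). It was also lost with cells thinned to 10000 UMIs (-0.90, edgeR adjusted p = 0.12) and with RLE size factors (-1.23, edgeR adjusted p = 0.078). In cells with over 2000 genes and over 20000 UMIs it was lost too (-1.27, edgeR adjusted p = 0.072). Of the 7 alternatives that kept all monkeys, 3 called it. PP-cells ran from 0 to 106, and the 2 young monkeys, at 16.1 and 106, lay above the 4 old ones, at 0, 2.85, 9.34 and 14.4. PP-cells rested on 78 ALDH5A1 UMIs in these 6 monkeys and 1 cell of young male 4 gave 28 of them, and the gene did not pass the filter for the age test there. By age it ran from 24.2 to 48.4 in young and from 17.2 to 61.5 in old α-cells (log2 fold change 0.32, SE 0.21, edgeR adjusted p = 0.82) and from 6.43 to 36.3 and 12.3 to 54.6 in β-cells (0.27, SE 0.34, edgeR adjusted p = 1.0).

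GABBR1, the GABA-binding subunit of the GABA-B receptor, was an α-cell transcript by comparison with β-cells. α-cells ran from 9.92 to 24.9 CPM with a median of 14.6, and β-cells from 1.37 to 14.9 with a median of 4.06. β-cells were lower in 15 of 16 monkeys, and the ranges overlapped between 9.92 and 14.9. The means were 15.8 ± 4.54 and 6.14 ± 4.56 (SD, n = 16 each), with a log2 fold change of -1.59 (SE 0.42, edgeR adjusted p = 0.0028) that was called in 16 of 16 fits that left out 1 monkey. The β-cell level was 31.1% of the α-cell level in the median monkey, beside 45.7% for TTR, 27.7% for GCG, 14.6% for TM4SF4, 9.18% for GC and 7.70% for the α-cell factor IRX2. The GABBR1 share in the median monkey thus lay below that of TTR and above those of the other α-cell transcripts listed, and how much of it was carried over from α-cells was not tested. δ-cells ran from 0 to 17.9 (median 4.72) and PP-cells from 0 to 36.1 (median 3.43), and neither was called against α- or β-cells, the nearest to the threshold being δ- against α-cells (log2 fold change -1.28, SE 0.54, edgeR adjusted p = 0.074).

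GABBR2, the partner that couples the receptor to G proteins, had another order, with δ- and PP-cells above α- and β-cells. α-cells ran from 0.778 to 7.93 CPM (median 2.42) and β-cells from 0 to 13.6 (median 2.04), whereas δ-cells ran from 0 to 85.9 (median 16.3) and PP-cells from 0 to 65.5 (median 25.3). δ-cells were above α-cells in 8 of 11 monkeys (log2 fold change 2.80, SE 0.68, edgeR adjusted p = 0.0019) and PP-cells in 5 of 6 (3.69, SE 0.81, edgeR adjusted p = 0.0029). Against β-cells the log2 fold changes were 3.05 (SE 0.71, edgeR adjusted p = 0.0013) for δ-cells and 3.94 (SE 0.83, edgeR adjusted p = 0.00054) for PP-cells. δ- and PP-cells did not differ beyond their spread (0.89, SE 0.93, edgeR adjusted p = 0.59), nor did β- and α-cells (-0.25, SE 0.56, edgeR adjusted p = 0.80). These levels rest on few molecules, 114 UMIs in the δ-cells and 73 in the PP-cells of the monkeys compared. Of these, 1 δ-cell of young male 3 gave 28. Another 20 came from 1 PP-cell of young male 4, which held all GABBR2 UMIs of the young PP-cells compared. GABBR2 UMIs were in 17 of 112 δ-cells (15.2%, 95% interval 9.10 to 23.2) and 11 of 74 PP-cells (14.9%), against 4.17% of α-cells and 5.66% of β-cells, which were sequenced deeper. In cells with over 2000 genes and over 20000 UMIs the δ-cell difference from α-cells was 1.97 and no longer called (edgeR adjusted p = 0.055). S100B made 93.3 of the 96.2 CPM of Schwann cell markers in δ-cells, and SOX10, the defining one, was at 0 there.

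**Figure D5:**
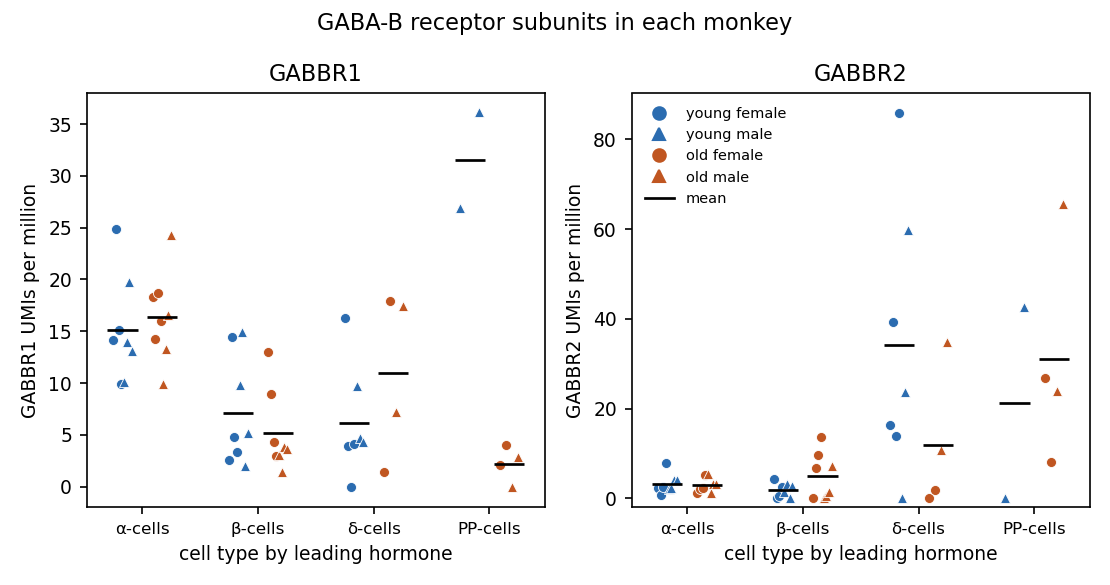
CPM of GABBR1 (left) and GABBR2 (right) in the 4 cell types of each monkey with at least 5 such cells, with 1 point per monkey (circles females, triangles males, blue young, orange old) and bars for group means. GABBR1 lies between 9.92 and 24.9 in α-cells and at 14.9 or below in β-cells, and GABBR2 reaches 85.9 in δ-cells and 65.5 in PP-cells against at most 13.6 in α- and β-cells.

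Since both subunits are needed for a working GABA-B receptor, cells with UMIs of both were counted. There were 51 of 4503 α-cells (1.13%), 12 of 1219 β-cells (0.984%), 5 of 112 δ-cells (4.46%) and 0 of 74 PP-cells, which allows a share of up to 4.05%. Among GABBR2-positive α-cells 27.1% also held a GABBR1 UMI, and among the other α-cells 28.4% did, so GABBR1 was detected in similar shares of α-cells with and without a GABBR2 UMI. In β-cells the same shares were 17.4% and 18.9%. They were 29.4% of 17 GABBR2-positive δ-cells against 16.8% of the others, and 0% of 11 GABBR2-positive PP-cells against 15.9% of the others.

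GABRA2, a GABA-A receptor subunit, was at the edge of detection. It had UMIs in 100 cells (1.69%), and the 10 cells with the most held 64.6% of them. α-cells ran from 0 to 1.93 CPM and β-cells from 0 to 5.33, with 9 of 16 monkeys at 0 in β-cells. The highest β-cell value, in old female 1, came mostly from 1 cell with 69 UMIs, out of 91 in all β-cells. In δ-cells 8 of 11 monkeys were at 0 and young male 2 stood at 70.9, where 1 cell gave 30 of the 38 UMIs of all δ-cells. The gene passed the filter in the comparison of types, and the edgeR fit with the monkey in the model called no pair of types for it (adjusted p from 0.19 to 0.88), while DESeq2 called δ-cells against α-cells (2.81, adjusted p = 0.043) and against β-cells (3.10, adjusted p = 0.033).

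Across the 6 pairs of types, then, GAD2, GABBR1, GABBR2 and ALDH5A1 were called at least once. In δ-cells against α-cells 3 of 6 tested members were called, 2 as higher and 1 as lower, where 23.2% of all genes were called (4.36% as higher, 18.9% as lower). In PP-cells against α-cells 1 of 6 was called as higher, where 6.61% of all genes were (1.78% and 4.82%). In δ-cells against β-cells 2 of 6 were, 1 each way, where 19.8% of all genes were (5.26% and 14.5%). In PP-cells against β-cells it was also 1 each way, where 17.2% of all genes were called (6.67% and 10.6%). In PP-cells against δ-cells 1 of 6 was lower, where 10.3% of all genes were called (6.51% and 3.83%). With so few genes these shares are not read as a property of the pathway.

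By age, none of the other members passed the threshold in any type. GAD2 in β-cells ran from 511 to 1340 CPM in young monkeys (median 1118) and from 1010 to 1381 in old ones (median 1172). The old monkeys lay within a narrower range, 3 of 8 young monkeys were below all of them, and the log2 fold change was 0.20 (SE 0.17, edgeR adjusted p = 0.99). In α-cells it ran from 10.7 to 86.7 and from 12.7 to 112 (0.11, SE 0.42, edgeR adjusted p = 0.97). The α-cell means were 34.9 ± 19.8 in young and 64.8 ± 44.8 in old females, and 47.2 ± 27.1 in young and 30.0 ± 12.7 in old males (SD, n = 4 each), and the difference in the age effect between males and females was -1.47 (SE 0.77, edgeR adjusted p = 0.89).

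In δ-cells the old monkeys had 355, 441, 775 and 935 GAD2 CPM, and the 7 young ones ran from 45.3 to 374 with a median of 233. All 4 old monkeys lay above the young median and 3 of 4 above every young monkey, or 2 of 4 once the single cell of old female 1 described above was set aside. The log2 fold change was 1.61 (SE 0.45, unadjusted p = 0.0012, edgeR adjusted p = 1.0), in a comparison that called 0 of 6484 genes (0%) and had 209 at an unadjusted p under 0.05. It was 1.34 without old female 1, 1.22 once the deepest cells (over the 95th percentile of UMIs) were removed and 1.17 with thinned cells. Of single δ-cells, 22 of 70 young (31.4%) and 21 of 42 old (50%) lay at or above the β-cell mark of 175. These pooled counts are a description and include the cells of monkeys with under 5 δ-cells. Among the monkeys compared, the young ranged from 1 of 14 cells (young female 1) to 4 of 6 (young female 2). The old ranged from 2 of 11 (old female 2) to 4 of 5 (old male 2). INS in δ-cells averaged 6628 CPM in young and 7617 in old monkeys, and old δ-cells were deeper, at a median of 52577 against 36549 UMIs.

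GABBR1 had log2 fold changes with age of 0.083 (SE 0.22) in α-cells and -0.61 (SE 0.58) in β-cells, and GABBR2 of -0.15 (SE 0.45) and 0.97 (SE 0.90), with edgeR adjusted p between 0.95 and 1.0 for these 4. In β-cells GABBR2 ran from 0 to 4.41 CPM in young and from 0 to 13.6 in old monkeys, 4 of 8 old monkeys lay above every young one, and the value without 1 monkey ranged from 0.46 to 1.25. In PP-cells the age comparison had 2 young and 4 old monkeys. GABBR1 stood there at 26.9 and 36.1 in the young monkeys and at 0, 2.05, 2.85 and 4.00 in the old ones, with 35 UMIs in all, of which 16 came from 1 cell of young male 4 (log2 fold change -4.01, SE 2.75, edgeR adjusted p = 0.92, with 0 of 6568 genes called, 0%, and 394 at an unadjusted p under 0.05). In δ-cells GABBR2 ran from 0 to 85.9 in young and from 0 to 34.8 in old monkeys (-2.22, SE 1.53, edgeR adjusted p = 1.0). The median over the 5 members tested was 0.20 in β-cells and 0.083 in α-cells, beside -0.0057 and -0.0023 over all tested genes. Neither the difference of age effects between β- and α-cells nor that between the sexes was called for any member, in comparisons that called 0 of 12137 genes (0%) for the types, 0 of 11693 (0%) for the sexes in β-cells and 1 of 14146 (0.00707%) for the sexes in α-cells. Their counts at an unadjusted p under 0.05 were 763, 495 and 793.

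The wider pathway was taken from 7 lists of 70 further genes, of which 65 are in the files. None was called for age in β-cells (33 tested, 3 at an unadjusted p under 0.05), α-cells (42 tested, 3), δ-cells (22 tested, 0) or PP-cells (22 tested, 2). Over all tested genes 0.047% were called for age in β-cells and 0% in α-, δ- and PP-cells. Between β- and α-cells 41 were tested, and 6 were called as higher and 10 as lower in β-cells. Of all 12899 tested genes 25% were called there, 8.66% as higher and 16.3% as lower. The counts per list below stand beside these same shares and are not read as a property of the pathway.

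Of the further GABA-A subunits 3 were tested, and 1 was called as higher and 1 as lower in β-cells. GABRA5, the higher one, was the only GABA-A subunit at 10 or more CPM in β-cells on average. It ran from 1.61 to 43.6 in β-cells and from 6.14 to 24.7 in α-cells, was higher in β-cells in 15 of 16 monkeys, and had a log2 fold change of 1.18 (SE 0.37, edgeR adjusted p = 0.012). Transport genes had 2 higher and 3 lower of 8 tested, with SLC38A2, a glutamine carrier, at means of 16.5 ± 11.7 in β-cells and 5.31 ± 4.76 in α-cells (SD, n = 16 each; log2 fold change 1.66, SE 0.42, edgeR adjusted p = 0.0021). The genes that supply glutamate or take other routes to GABA had 1 higher and 3 lower of 7 tested.

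MAOB, the monoamine oxidase that can take part in making GABA from putrescine, ran from 66.1 to 126 in α-cells and from 3.22 to 12.5 in β-cells, without overlap, and was lower in β-cells in 16 of 16 monkeys (log2 fold change -3.70, SE 0.28, edgeR adjusted p = 4.9e-16). OGDH, an enzyme of the tricarboxylic acid cycle, was lower in β-cells in 16 of 16 monkeys (means 36.3 ± 19.9 against 79.4 ± 18.9, log2 fold change -1.29, SE 0.32, edgeR adjusted p = 0.0013), and 1 of 5 tested genes on the list of exits from the GABA route was called. Of the partners and effectors of the GABA-B receptor 1 was higher and 2 were lower of 7 tested. The higher one was KCTD8, an auxiliary subunit of the receptor, named after its values were seen, at a mean of 1.56 in β-cells and 0.0324 in α-cells on 135 and 11 UMIs (log2 fold change 5.34, SE 0.86, edgeR adjusted p = 4.4e-06). The lower ones were GNAO1 and the inhibitory G protein gene GNAI1, the latter at 67.6 ± 23.4 against 144 ± 28.3 (SD, n = 16 each; -1.10, SE 0.22, edgeR adjusted p = 9.9e-05). No gene on the list of decarboxylase cofactor and anchoring genes was called of 5 tested, and 1 of 6 was on the list of GABA-A clustering and chloride genes.

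The genes most like each member in level over the 49 sums of a monkey and a type were looked up among 9647 genes, as a description in which the sums share animals and libraries. GAD2 was nearest to HADH (Pearson r = 0.92 on log2(CPM + 1)), ERO1B (0.90) and SORL1 (0.89). HADH, a mitochondrial enzyme of fatty acid oxidation, averaged 981 CPM in β-cells and 582 in δ-cells, against 60.0 in PP-cells and 55.2 in α-cells, the same order of δ-cells after β-cells as GAD2. GABBR2 was nearest to GLUL (0.71), the glutamine synthetase, which averaged 165 CPM in PP-cells and 57.4 in δ-cells, against 32.6 in α-cells and 16.5 in β-cells, and to PBX3 (0.65) and HIST2H2AC (0.59). GABBR1 was nearest to KAT2A (0.72), BAP1 (0.72) and LZTS2 (0.68). KAT2A, a histone acetyltransferase, averaged 96.9 CPM in α-cells and 42.3 in β-cells. ALDH5A1 was nearest to PRMT5 (0.79), NAF1 (0.75) and PPP1R12B (0.74), and ABAT to DCTD (0.63), SNAPC5 (0.63) and EMC6 (0.62).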

How the data were processed

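Single islet cells of 16 monkeys were measured by the study with a modified STRT protocol. After trimming, the authors mapped reads to the assembly Macaca_fascicularis_5.0 by TopHat2 2.0.12 and counted unique hits by HTSeq. The deposited values are counts of UMIs, not normalized, with each molecule counted once. The submitters' processing notes also name CASAVA 1.8. The counts are whole numbers. The 95 spike-in RNAs were left out of CPM totals and tests but were counted in the limit of 10000 UMIs for keeping a cell. For this reason 45 kept cells had under 10000 UMIs of macaque genes. The study's filter on mapping rate was not used here.

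Sums of counts per monkey and type (at least 5 cells) went into edgeR 4.0.16 under R 4.3.3 (TMM, filterByExpr, quasi-likelihood test, Benjamini-Hochberg adjustment, threshold 0.05). Age was fitted with sex in each type, the types in 1 fit with the monkey as a block, since types of 1 animal are paired by the animal. Cells are not replicates. DESeq2 1.42.0 was an alternative tool. Levels were computed in Python 3.11.15 with numpy 2.4.6 and scipy 1.17.1. The tests were tried on simulated sums with 200 changed genes and the same spread for all genes, a setting simpler than these data. Members, lists and comparisons were chosen with earlier results of these data known. All 7 members are described. Of the 70 further genes (glutamate supply, transport, receptor subunits, partners, clustering, cofactor and exit lists, of which 65 are in the files), those are named that were called between β- and α-cells with a log2 fold change over 1 in size and at least 10 CPM in 1 of them. KCTD8 and GNAO1 were named after their values were seen, and a few genes that the rule or the lists would name are not reported here. For each member with at least 10 CPM in a type, the 3 genes with the highest Pearson correlation over the sums are named. Alternatives were other size factors, no filter, no sex term, a replicate block, each monkey left out, thinned cells, stricter cells, clearer types and at least 20 cells. Intervals and limits of a count of 0 (3 counts) cover counting error only. No sequence or coordinate is given, since no genome of the files' build was used here.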

Additional observations from a re-analysis of the deposited data

Results flagged for a closer look

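Among 48 groups of 4 to 8 monkeys (a member, a cell type and an age group), 11 had a monkey farther from the others than Dixon's 95% limit allows. Chance flags about 1 in 20 such groups, and 10 of the 11 concern GAD1 or GABRA2, whose values rest on a few UMIs in a few cells. For GAD1 they were young female 3 in β-cells at 9.06 CPM, old female 2 in β-cells at 4.49 and in PP-cells at 1.33, and old male 4 in δ-cells at 5.80. For GABRA2 they were young female 3 in α-cells at 1.93, old female 2 in α-cells at 1.23 and in PP-cells at 0.667, young female 2 in β-cells at 3.21, old female 1 in β-cells at 5.33 and young male 2 in δ-cells at 70.9. The other was GABBR2 in the α-cells of young female 4, at 7.93 against a median of 2.42 for the 8 young monkeys.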

How the results depend on the processing

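Of the recomputed counts of members called, 231 stayed within 1.5 times the first count and 3 did not. The exceptions were old against young β-cells with DESeq2 and with no filter on low counts, where 1 member (ABAT) was called in place of 0, and δ- against α-cells with over 2000 genes and over 20000 UMIs, where 1 member was called in place of 3. No called fold change changed sign. Without the monkey block the δ-cell call of ALDH5A1 was lost and GABRA2 was called in δ-cells against α-cells (4.09, edgeR adjusted p = 0.00045) and against β-cells (3.58, 0.0026). Of 70 fold changes recomputed, 14 changed sign under at least 1 alternative, in 28 refits or rescalings in all, and none of the 14 was called in the first fit or in the alternative that turned its sign. Monkey numbers of the labels did not pair the animals: same-numbered monkeys of different groups had correlations of their deviations from -0.10 to 0.15 in α-cells and from -0.12 to 0.12 in β-cells. With DESeq2 GABRA2 was also called in both, and without old female 1 it was called against β-cells (3.53, edgeR adjusted p = 0.036). With the replicate block of the monkey number ABAT in β-cells was at -1.02 (edgeR adjusted p = 0.073), and no member was called for age in any type. Leaving out 1 monkey kept ABAT in β-cells between -1.10 and -0.88 (edgeR adjusted p from 0.069 to 0.25). Not run were the age fits of δ- and PP-cells with at least 20 cells or with clearer types, and the type fits of δ- and PP-cells with clearer types or at least 20 cells. The 74 PP-cells and 112 δ-cells limit what could be detected there.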
